A study of Homo sapiens with 32 samples.

Results

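The neuronal cytoskeleton and neurite genes described here are NEFL, NEFM, INA, PRPH, TUBB3, STMN2, GAP43, MAP2, DCX and UCHL1, 10 of the 22610 entries in a table of transcript abundance. They were chosen by name, with earlier results of these data known. RNA-Seq was performed on SK-N-BE(2) cells, an established human neuroblastoma line, which limits every result to 1 tumour line. Cells received 20 μM CBD (cannabidiol, a cannabis compound) in ethanol, or the 0.1% ethanol vehicle alone, for 3, 6, 12 or 24 h, with 4 samples in each of the 8 groups and 32 samples in all. The comparisons ask how transcript abundance in CBD-treated cells differed from vehicle at the same hour, and how it changed with time in each treatment.

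The members cover several layers of the neuronal cytoskeleton. NEFL and NEFM encode the light and medium neurofilament chains, INA encodes alpha-internexin and PRPH encodes peripherin. These proteins are type III or type IV intermediate filament subunits that assemble together in axons, and peripherin is best known from peripheral neurons, the lineage neuroblastoma comes from. TUBB3 encodes the neuronal beta-tubulin. MAP2 and DCX (doublecortin) bind and stabilise microtubules, the former mainly in dendrites and the latter in immature neurons. STMN2 (stathmin-2, or SCG10) binds free tubulin, GAP43 is a membrane protein of the growth cone, and UCHL1 is an abundant neuronal deubiquitinase. Several of them are widely used as markers of neuronal identity or neurite growth.

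Values are FPKM, the number of fragments per kilobase of transcript scaled to the number of mapped reads. The depth of the libraries is not recorded in FPKM. Relative depth, estimated from the smallest steps of 1585 low genes, spanned 1.53-fold across samples, and the group medians at 3, 6, 12 and 24 h were 0.919, 0.958, 0.924 and 1.00 in CBD and 1.05, 1.05, 1.00 and 1.02 in vehicle. The estimate is rough, as only 54.6% of 1693 multiples of the smallest step lay within 0.1 of a whole number. No pair of samples held identical values. All 10 adrenergic neuroblastoma markers examined averaged at least 1 FPKM in every group, with summed levels of 3267 to 3616 FPKM in vehicle and 3461 to 4091 FPKM in CBD samples. None of 6 Schwann or glial markers and none of 4 blood markers reached a mean of 1 FPKM, and of 5 epithelial markers EPCAM alone did. Of 8 mesenchymal markers 4 did (COL1A1, SNAI2, LUM and DCN), while PRRX1 and COL1A2 averaged under 0.1 FPKM in every group. At 24 h the mesenchymal markers summed to 59.4 to 66.7 FPKM in vehicle and 67.2 to 73.1 FPKM in CBD, a sum made up mostly of LUM. Within that list SNAI2 (0.43) and LUM (0.13) were called higher and DCN lower (-0.39) on the log2 scale. EPCAM was higher with CBD at 12 h (2.65 against 1.95 FPKM) and 24 h (4.27 against 3.35 FPKM), and at 24 h 5 of the 10 adrenergic markers were lower and MYCN was higher with CBD. Whether these levels have a part in the results on the 10 genes was not tested, and in bulk RNA fewer cells of a type and less RNA per cell cannot be told apart.

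All 10 genes were expressed. Over the 32 samples STMN2 averaged 1097 FPKM and ranked 82 of the 12621 genes with a mean of at least 1 FPKM, the set on which every test was run. UCHL1 followed at 618 FPKM, TUBB3 at 441 FPKM and GAP43 at 220.2 FPKM. The filament genes were closer together, at 136 FPKM for NEFM, 125 for INA, 115 for PRPH and 88.8 for NEFL. MAP2 averaged 62.6 FPKM. DCX was the least abundant at 9.11 FPKM, with 45.5% of the tested genes below it. These levels are per kilobase of transcript and so can be set against each other, but only roughly. Some reads could belong to overlapping genes, as given below.

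**Figure D1:**
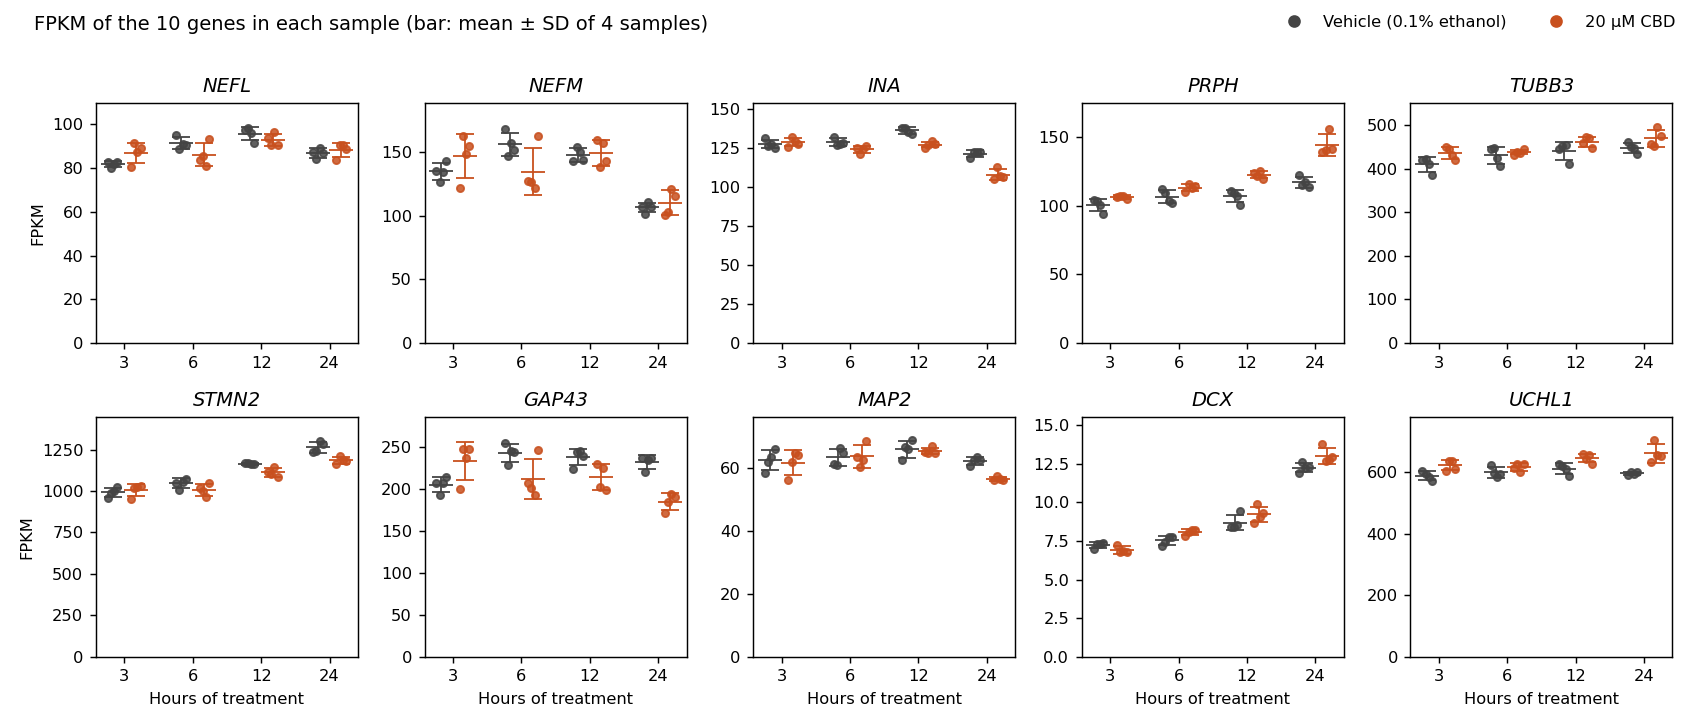
FPKM (y axis, from 0, scaled per gene) of the 10 genes in each sample against hours of treatment (x axis), with vehicle in grey and 20 μM CBD in orange; the horizontal and vertical bars mark the mean ± SD of 4 samples. At 24 h all 4 CBD samples lie above all 4 vehicle samples for PRPH, DCX and UCHL1, and below them for INA, STMN2, GAP43 and MAP2.

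At 24 h of CBD, 6 of the 10 genes differed from vehicle in limma's test at an adjusted p under 0.01, against a background of 42.1% of all tested genes. PRPH and UCHL1 were higher, and INA, STMN2, GAP43 and MAP2 were lower, where 20.8% of tested genes were called higher and 21.3% lower. The sizes were small, from 1.23-fold higher for PRPH to 0.796 times vehicle for GAP43 as ratios of mean FPKM. The groups did not overlap for 7 of the 10 (those 6 and DCX), against 51% of all tested genes. The median difference of the 10 genes was 0.035 on the log2 scale, beside -0.0032 over all genes tested. All log2 differences here are on log2(FPKM + 1), a scale that understates the change of low genes such as DCX.

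The sequence just upstream of the annotated start is shown for the pair of genes that was higher (PRPH and UCHL1) and for 2 of those that were lower at 24 h (INA and GAP43), so that the promoters of genes that moved in opposite directions can be compared. Each is the 100 bases before the RefSeq transcript start on GRCh38.p14, on the plus strand, 5′ to 3′, outside that RefSeq transcript. Whether other annotated transcripts of the gene start further upstream was not checked. Capitals mark TATAAA (the TATA box) or GGGCGG (the GC box) on either strand, which read TTTATA and CCGCCC on the other.
PRPH, chr12:49295047-49295146: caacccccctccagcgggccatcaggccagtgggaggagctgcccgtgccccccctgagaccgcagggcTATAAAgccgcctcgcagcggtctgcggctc
UCHL1, chr4:41256828-41256927: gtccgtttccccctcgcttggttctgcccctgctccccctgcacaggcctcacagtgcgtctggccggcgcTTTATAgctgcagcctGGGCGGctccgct
INA, chr10:103277038-103277137: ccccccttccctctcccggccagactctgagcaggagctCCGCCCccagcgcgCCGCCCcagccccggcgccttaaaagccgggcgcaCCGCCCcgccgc
GAP43, chr3:115623410-115623509: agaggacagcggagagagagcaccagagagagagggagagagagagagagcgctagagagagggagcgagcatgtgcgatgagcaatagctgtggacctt
The INA window held 79 G or C bases of 100, PRPH 72, UCHL1 68 and GAP43 57. RefSeq promoters of 300 bases around the start were matched for 7 of the 10 genes. TATAAA on either strand lay in those of PRPH, UCHL1 and DCX, 3 of 7, and in 11.5% of 35116 promoters. GGGCGG lay in those of INA, TUBB3 and UCHL1, also 3 of 7, and in 45.0% of promoters. The counts are of genes with any matching promoter, while the shares are of promoters, so the units differ. These are matches of letters and were not tested against the expression values.

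Among the filament genes, PRPH was higher with CBD from 12 h. PRPH lies on chromosome 12 (hg19, 49688930 to 49692469). Its vehicle samples were at 122.5, 115, 118 and 114 FPKM at 24 h, and its CBD samples at 139.7, 141, 156 and 141 FPKM. Every CBD sample at 24 h was above every other sample in the series, the next highest being 126 FPKM in CBD at 12 h. The mean rose from 117 ± 3.91 to 144 ± 7.79 FPKM (SD, n = 4), a log2 difference of 0.30 (SE 0.036, limma adjusted p = 1.29e-07).

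At 12 h the PRPH samples were at 111, 109.7, 107 and 101 FPKM in vehicle and 124, 121, 126 and 120.0 FPKM in CBD. The groups did not overlap, and the difference was 0.20 (SE 0.036, adjusted p = 0.000165). At 3 h (0.082, adjusted p = 0.171) and 6 h (0.085, adjusted p = 0.105) it was not past the threshold, although the 3 h groups did not overlap. The CBD effect was larger at 24 h than at 3 h by 0.22 (SE 0.052, adjusted p = 0.00148). PRPH also rose with time in vehicle, from 101 ± 4.47 FPKM at 3 h to 117 ± 3.91 at 24 h, a change of 0.22 (adjusted p = 8.64e-06).

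INA, the alpha-internexin gene, went the other way. INA lies on chromosome 10 (hg19, 105036895 to 105050103). At 24 h its vehicle samples were at 119, 122, 123 and 123 FPKM and its CBD samples at 105, 113, 107 and 106 FPKM. All 4 CBD samples at 24 h were below every other sample in the series, the next lowest being that vehicle sample at 119 FPKM. The mean was 108 ± 3.55 FPKM in CBD and 122 ± 2.02 in vehicle, a log2 difference of -0.17 (SE 0.021, adjusted p = 2.22e-07).

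At 12 h INA was at 138, 138, 136 and 134 FPKM in vehicle and 125, 127, 129 and 128 FPKM in CBD, again without overlap. That difference was -0.10 (SE 0.021, adjusted p = 0.000795). At 3 h the groups overlapped (0.012, adjusted p = 0.799), and at 6 h they did not (-0.050, adjusted p = 0.105), but neither was called. The effect at 24 h was lower than that at 3 h by -0.18 (SE 0.030, adjusted p = 3.02e-05). INA had the narrowest errors of the filament genes, with replicate coefficients of variation from 1.37% to 3.29%.

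The neurofilament chains NEFL and NEFM were not called between treatments at any time. NEFL at 24 h was at 87.6, 84.1, 89.2 and 86.9 FPKM in vehicle and 83.9, 90.7, 90.4 and 89.0 in CBD, with overlapping groups and a 95% interval of the difference from -0.054 to 0.10. NEFM at 24 h was at 107, 101, 111 and 107 FPKM in vehicle and 101, 103, 121 and 115 in CBD, also overlapping, with a wider interval of -0.12 to 0.21.

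NEFM was the most variable gene of the 10, and its 6 h result turns on 1 library. At 6 h its vehicle samples were at 168, 147, 157 and 152 FPKM and its CBD samples at 127, 127, 122 and 162 FPKM. CBD replicate 4 lay within the vehicle range while the other CBD samples lay below it. With all samples the difference was -0.22 (SE 0.080, adjusted p = 0.0545), and without CBD replicate 4 it was -0.31 (adjusted p = 0.00338). GAP43 had a like pattern in these samples, as its values below show.

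PRPH and INA were chosen for a ratio after their values had been seen, so the ratio is a description only. PRPH FPKM over INA FPKM averaged 0.787 in vehicle and 0.827 in CBD at 3 h. At 12 h the averages were 0.784 and 0.964. At 24 h the ratio was 0.964 in vehicle (0.927 to 1.03) and 1.34 in CBD (1.24 to 1.46). At 24 h PRPH FPKM thus exceeded INA FPKM in all 4 CBD samples, and also in vehicle replicate 1 (1.03). Both genes overlap a gene on the opposite strand, as given below, so the level of the ratio is rough. The ratio of NEFM to NEFL was lower at 24 h than at 3 h in both treatments, going from 1.65 in vehicle and 1.68 in CBD at 3 h to 1.22 and 1.24 at 24 h.

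**Figure D2:**
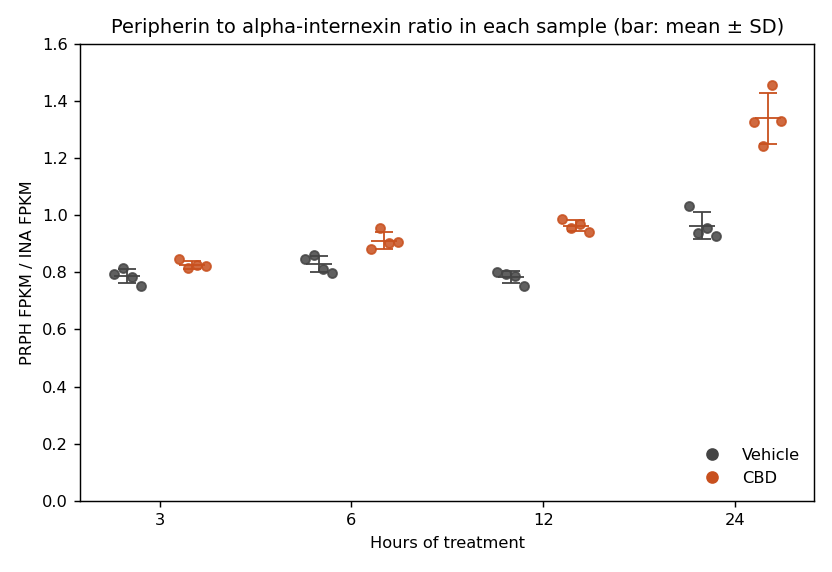
Ratio of PRPH to INA FPKM (y axis, no unit, from 0) in each sample against hours of treatment (x axis), vehicle in grey and CBD in orange, with bars for the mean ± SD of 4 samples. CBD samples at 24 h lie between 1.24 and 1.46, above the vehicle samples at 0.927 to 1.03.

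Of the tubulin and microtubule genes, STMN2 and MAP2 were lower at 24 h, and TUBB3 and DCX were not called at any time. STMN2 at 24 h was at 1233, 1242, 1300.0 and 1285 FPKM in vehicle and 1164, 1211, 1186 and 1180.2 FPKM in CBD, without overlap. The mean was 1185 ± 19.6 FPKM in CBD and 1265 ± 32.6 in vehicle, a difference of -0.094 (SE 0.027, adjusted p = 0.00545). At 12 h, STMN2 was at 1160.2 to 1171 FPKM in vehicle and 1083 to 1145 in CBD, without overlap, but the difference of -0.067 missed the threshold (adjusted p = 0.0668). STMN2 at 12 h was called under 1 of the 12 alternative settings (limma adjusted p = 0.00629).

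MAP2 at 24 h was at 60.5, 62.4, 63.4 and 62.5 FPKM in vehicle and 56.1, 57.3, 56.4 and 56.0 FPKM in CBD. All 4 CBD samples were below the vehicle samples. The mean was 56.5 ± 0.600 FPKM in CBD and 62.2 ± 1.22 in vehicle, a difference of -0.14 (SE 0.042, adjusted p = 0.00687). At the earlier times MAP2 lay within 0.02 of 0 on the log2 scale. Both calls were close to the threshold. The MAP2 call was lost on leaving out any one of the 8 samples except vehicle replicate 1, with adjusted p up to 0.0217 and differences of -0.15 to -0.13. The STMN2 call was lost on leaving out CBD replicate 1, 3 or 4 or vehicle replicate 3 or 4, with adjusted p up to 0.0257 and differences of -0.11 to -0.081.

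TUBB3 at 24 h was at 461, 449, 448 and 433 FPKM in vehicle and 455, 452, 495 and 475 in CBD, with overlapping groups. Its difference was 0.067, with a 95% interval of -0.0068 to 0.14 (adjusted p = 0.121). DCX at 24 h was at 11.9, 12.6, 12.2 and 12.3 FPKM in vehicle and 13.8, 12.6, 12.7 and 12.9 FPKM in CBD. The CBD samples were all above the vehicle samples, the closest by less than 0.1 FPKM, and the difference of 0.082 was not past the threshold (adjusted p = 0.0509).

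GAP43, the growth-cone gene, showed the largest difference among the 10 at 24 h. GAP43 lies on chromosome 3 (hg19, 115342357 to 115440337). At 24 h its vehicle samples were at 237, 219.6, 234 and 236 FPKM and its CBD samples at 171, 184, 194 and 189.8 FPKM. No CBD sample reached the lowest vehicle sample. The mean fell from 232 ± 8.32 to 185 ± 9.90 FPKM, a log2 difference of -0.33 (SE 0.068, adjusted p = 0.000205).

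At 3 h the GAP43 samples were at 207, 192, 207 and 215 FPKM in vehicle and 199, 248, 237 and 247 FPKM in CBD. The CBD mean was the higher one at this hour, 233 ± 22.9 against 205 ± 9.40 FPKM, but CBD replicate 1 lay inside the vehicle range and the difference of 0.18 was not called (adjusted p = 0.108). The CBD effect at 24 h was lower than at 3 h by -0.51 (SE 0.096, adjusted p = 0.000141), the largest such change among the 10. At 6 h the vehicle samples were at 255, 229, 245 and 244 FPKM and the CBD samples at 207, 201, 193 and 246 FPKM. As for NEFM, CBD replicate 4 lay among the vehicle samples. With it the difference was -0.20 (adjusted p = 0.0359) and without it -0.28 (adjusted p = 0.00259). Within the 8 groups, NEFM and GAP43 had the same replicate as the highest in 6 and as the lowest in 7. Other pairs came near, with NEFL and INA sharing the highest in 7 and NEFL and GAP43 the lowest in 7. CBD replicate 4 at 6 h was also the highest of its group for NEFL, INA, TUBB3, STMN2, MAP2 and DCX. That sample had the lowest FPKM total of the series, 956075, and its part in these values was not tested.

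UCHL1 lies on chromosome 4 (hg19, 41258430 to 41270472). At 24 h it was at 590.3, 599, 595 and 599.6 FPKM in vehicle and 632, 703, 656 and 651 FPKM in CBD. The vehicle samples lay within 10 FPKM of each other and all CBD samples lay above them. The mean was 661 ± 30.0 FPKM in CBD and 596 ± 4.42 in vehicle, a difference of 0.15 (SE 0.028, adjusted p = 7.40e-05). The groups also did not overlap at 3 h (0.079, adjusted p = 0.0788) and 12 h (0.081, adjusted p = 0.0285), where the difference was not called.

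**Figure D3:**
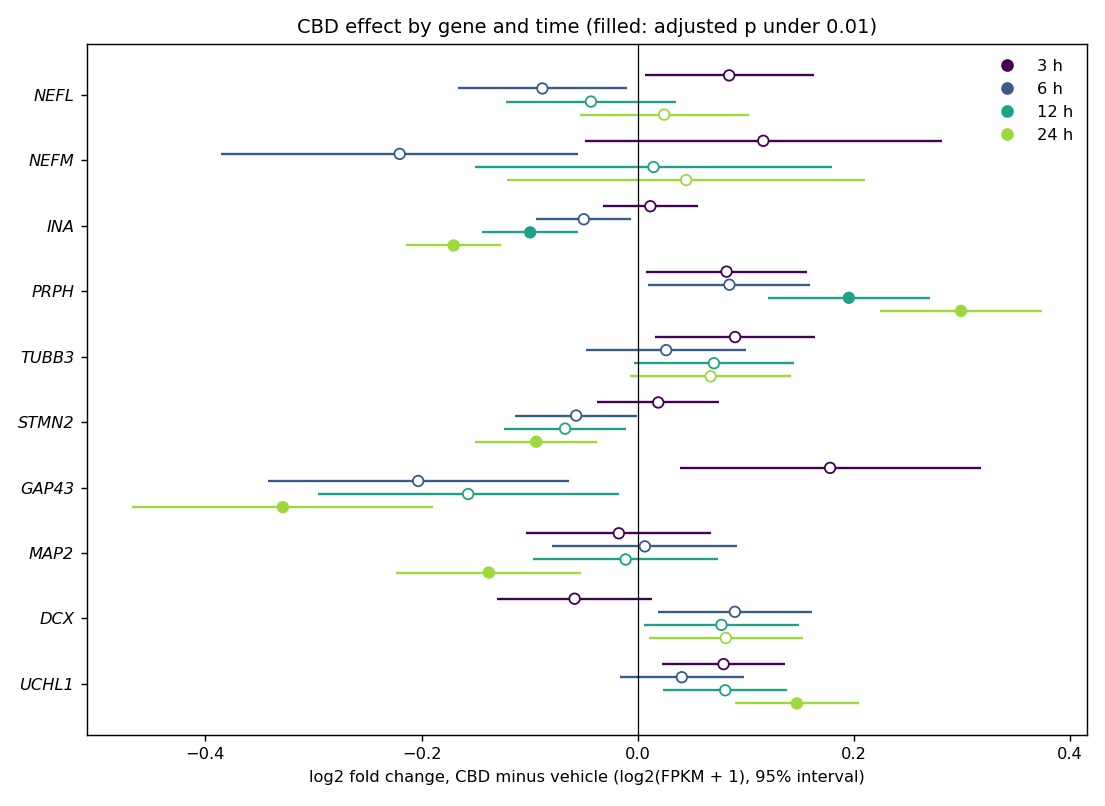
Log2 difference of CBD minus vehicle on log2(FPKM + 1) (x axis) for each gene (y axis) at 3, 6, 12 and 24 h (colours), with 95% intervals as lines and filled circles for an adjusted p under 0.01. PRPH moved from 0.082 at 3 h to 0.30 at 24 h, INA from 0.012 to -0.17 and GAP43 from 0.18 to -0.33.

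The number of members called grew with time, as it did over all genes. At 3 h none of the 10 was called in limma's test, where 2.46% of tested genes were (1.18% higher and 1.28% lower). The groups did not overlap for PRPH and UCHL1, 2 of 10 against 9.88% of tested genes. At an unadjusted p under 0.05, 5 of the 10 passed at 3 h (NEFL, PRPH, TUBB3, GAP43 and UCHL1), against 23.1% of tested genes, and all 5 were higher with CBD, beside 12.9% of tested genes. At 6 h none was called, against 10.2% of tested genes, and 7 of the 10 passed an unadjusted p under 0.05, against 32.2%, with 2 higher beside 14.1% and 5 lower beside 18.1%. At 12 and 24 h the counts at that unadjusted limit were 6 of 10 against 39.6% and 7 of 10 against 57.6%. The 6 h groups did not overlap for INA and DCX, against 19.6% of tested genes. At 12 h PRPH and INA were called, 2 of 10 against 20.1% of tested genes, and the groups did not overlap for these genes, STMN2 and UCHL1, 4 of 10 against 30.3%. Of the 10, PRPH, INA and GAP43 had a CBD effect that differed between 24 h and 3 h, 3 of 10 against 27.2% of tested genes, with 1 higher beside 12.9% and 2 lower beside 14.3%. For STMN2 that difference was -0.11 (adjusted p = 0.0228), and it was called without CBD replicate 1 at 3 h (-0.14, adjusted p = 0.00320). The calls of PRPH and INA at 12 h and of PRPH, INA, GAP43 and UCHL1 at 24 h were kept under each of the 12 alternative settings and on leaving out each sample.

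Several of these genes also changed with hours in culture, without CBD. In vehicle, 6 of the 10 changed between 3 and 24 h, against 57.8% of tested genes, with 4 higher beside 26.6% and 2 lower beside 31.1%. The groups did not overlap for 8 of the 10 (all but MAP2 and UCHL1), against 62.1%. DCX rose most. Its vehicle samples were at 6.97, 7.29, 7.31 and 7.38 FPKM at 3 h and 11.9, 12.6, 12.2 and 12.3 FPKM at 24 h, a change of 0.69 (SE 0.035, adjusted p = 4.85e-15). The means at 6 and 12 h, 7.53 and 8.69 FPKM, lay between these, and the 3 and 6 h samples overlapped. STMN2 rose from 993 ± 26.2 to 1265 ± 32.6 FPKM (0.35, adjusted p = 2.19e-11), and PRPH (0.22) and TUBB3 (0.13, adjusted p = 0.00263) also rose. TUBB3 lost the call without vehicle replicate 4 at 3 h or vehicle replicate 1 at 24 h, with adjusted p of 0.0185 and 0.0120. NEFL (0.085, adjusted p = 0.0518) was not called. Under 2 of the 12 alternative settings it was, with a change of up to 0.18 (adjusted p down to 2.40e-05).

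NEFM fell in vehicle, from 135, 127, 135 and 143 FPKM at 3 h to 107, 101, 111 and 107 FPKM at 24 h. No sample of one hour lay within the range of the other, and the change was -0.34 (SE 0.080, adjusted p = 0.000625), although at 6 h NEFM had its highest mean of 156 ± 8.94 FPKM. INA had a small fall of -0.071 (adjusted p = 0.00486). That call was lost without vehicle replicate 1 or 3 at 3 h or replicate 1 at 24 h (adjusted p up to 0.0276). It was also lost under 3 of the 12 alternative settings, among them quantile normalization, where the sign of the change turned (0.00053).

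In CBD, 9 of the 10 changed between 3 and 24 h and NEFL was not called, against 67.8% of tested genes, with 5 higher beside 32.1% and 4 lower beside 35.7%. The groups did not overlap for 7 of the 10 (all but NEFL, MAP2 and UCHL1), against 64.6%. NEFL was called under 1 of the 12 alternative settings, with a change of up to 0.16 (adjusted p down to 6.60e-05). The CBD and vehicle comparisons over time share no samples. DCX rose from 7.25, 6.75, 6.85 and 6.79 FPKM to 13.8, 12.6, 12.7 and 12.9 FPKM, a change of 0.83 (SE 0.035, adjusted p = 2.43e-17) beside 0.69 in vehicle; the difference between these changes was 0.14 (adjusted p = 0.0255). GAP43 fell by 0.33 in CBD (adjusted p = 9.32e-05) and had a change of 0.18 in vehicle that was not called (adjusted p = 0.0243). That change in vehicle was called under 3 of the 12 alternative settings, among them the threshold of 0.05 (adjusted p down to 0.00495). INA fell by 0.25 (adjusted p = 3.81e-11), NEFM by 0.41 (adjusted p = 5.50e-05) and MAP2 by 0.12 (adjusted p = 0.00986). PRPH rose by 0.43, STMN2 by 0.24, TUBB3 by 0.11 and UCHL1 by 0.086. Quantile normalization brought the change over time in CBD to 0.082 for STMN2, no longer called (adjusted p = 0.0158), and to -0.12 for INA, -0.26 for NEFM and -0.19 for GAP43, still called. It brought STMN2 in vehicle to 0.19, also still called. MAP2 lost its call in CBD under 6 of the 12 alternative settings. The calls of MAP2, TUBB3 and UCHL1 did not hold on leaving out single samples. MAP2 was lost without any 1 of the 8 samples other than CBD replicate 1 at 3 h. TUBB3 was lost without CBD replicate 2, 3 or 4 at 3 h or 3 or 4 at 24 h, and UCHL1 without CBD replicate 1 or 4 at 3 h or 2 or 3 at 24 h. The adjusted p reached 0.0462, 0.0536 and 0.0551 for MAP2, TUBB3 and UCHL1, and the UCHL1 change fell to 0.056 without replicate 2 at 24 h.

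**Figure D4:**
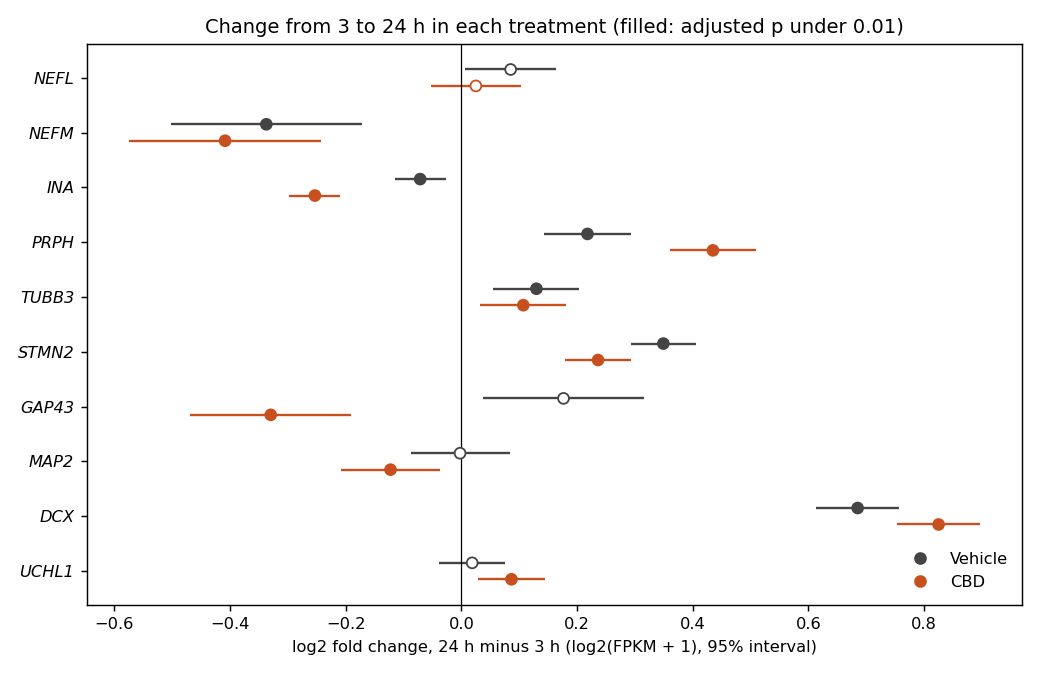
Log2 change from 3 to 24 h on log2(FPKM + 1) (x axis) for each gene (y axis) in vehicle (grey) and CBD (orange), with 95% intervals as lines and filled circles for an adjusted p under 0.01. DCX moved furthest, by 0.69 and 0.83, and GAP43 had changes of opposite sign, 0.18 in vehicle and -0.33 in CBD.

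Over the 8 groups the means of DCX spanned 0.83 on the log2 scale, those of NEFM 0.55 and those of PRPH 0.52, against a median span of 0.31 over the tested genes. UCHL1 had the narrowest span at 0.17. For these 3 widest genes, the genes with the closest profile over the 8 group means were found by the root mean square difference after centring each profile. For DCX they were GDPD5 (0.031), SHISA4 (0.034) and DRD2 (0.043). For PRPH they were CAMKV (0.018), ESRRA (0.022) and B3GNTL1 (0.024). NEFM had no neighbour as close, with GPATCH4 at 0.048, HOXC9 at 0.072 and SCG2 at 0.073. GDPD5, SHISA4 and B3GNTL1 averaged only 2.31, 1.63 and 2.60 FPKM. On log2(FPKM + 1) their changes are understated more than those of DCX or PRPH, so a close profile does not mean equal fold changes.

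Other genes of the neurite cytoskeleton were taken from 6 lists with 76 genes, of which 74 were tested and PLXNA2 and NRP1 fell under the filter. The lists were chosen with earlier results of these data known, so the counts are a description only. At 24 h, 11 of the 74 were higher and 31 lower with CBD, beside 20.8% and 21.3% of all tested genes, and their median difference was -0.051. At 12 h, 7 were higher and 17 lower, beside 8.85% and 11.2%. At 6 h, 3 were higher and 11 lower, beside 4.07% and 6.13%, and with only the 6 h groups in the fit 1 was higher and 2 lower, while the counts over all tested genes went from 514 to 187 higher and from 774 to 238 lower. At 3 h none was called by limma, beside 2.46% of tested genes, and 18 passed an unadjusted p under 0.05, a share close to the 23.1% of all tested genes.

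Among the other intermediate filament genes, 2 were higher, 2 lower and 2 not called at 24 h. NEFH, the heavy neurofilament chain, was lower at 43.7 ± 3.40 FPKM in CBD and 59.4 ± 2.85 in vehicle (-0.44, adjusted p = 1.75e-05), and its difference from the lighter chains, which were not called, was not tested. LMNB1, a nuclear lamin, was lower by -0.49. SYNM (synemin) was higher by 0.21, and VIM (vimentin) by 0.13 with overlapping groups.

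Of 11 tubulin subunits, 1 was higher and 4 lower at 24 h. TUBA1B and TUBB2A were each lower by -0.18, at 500.2 ± 6.38 against 569 ± 24.3 FPKM for the former. TUBA4A was higher by 0.36 at a low level, 2.01 ± 0.152 against 1.34 ± 0.0696 FPKM. Of 15 microtubule-binding genes, 4 were higher and 6 lower. The stathmins STMN1 (-0.37) and STMN3 (-0.40) were lower, as was STMN2 among the members, and MAP1A (0.35) and the plus-end protein MAPRE3 (0.34) were higher. STMN4, named after its values were seen, was lower at 6 h (-0.64), 12 h (-0.79) and 24 h (-0.29), at 22.1 ± 0.995 against 38.8 ± 1.15 FPKM at 12 h. Of 10 kinesin and adaptor genes, 1 was higher (KIF5A, 0.11) and 3 lower, among them KIF5C (-0.30) and KIF1B (-0.088).

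Of 20 growth cone and axon guidance genes, 3 were higher and 11 lower at 24 h. MARCKSL1 (-0.49), an actin- and membrane-binding protein of the MARCKS family, and DPYSL4 (-0.43), a collapsin response mediator, were lower. RET, the receptor tyrosine kinase for ligands of the GDNF family, had the largest difference of the 74 genes. Its mean was 3.97 ± 0.0889 FPKM in vehicle and 10.4 ± 0.491 in CBD at 24 h, a difference of 1.20 (adjusted p = 9.88e-19), after 0.46 at 6 h and 0.81 at 12 h. NRCAM, an adhesion molecule of axons, was higher by 0.22. Of 12 neuronal RNA-binding and synaptic genes, none was higher and 5 were lower, led by ELAVL2 (-0.28) and SNAP25 (-0.25).

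**Figure D5:**
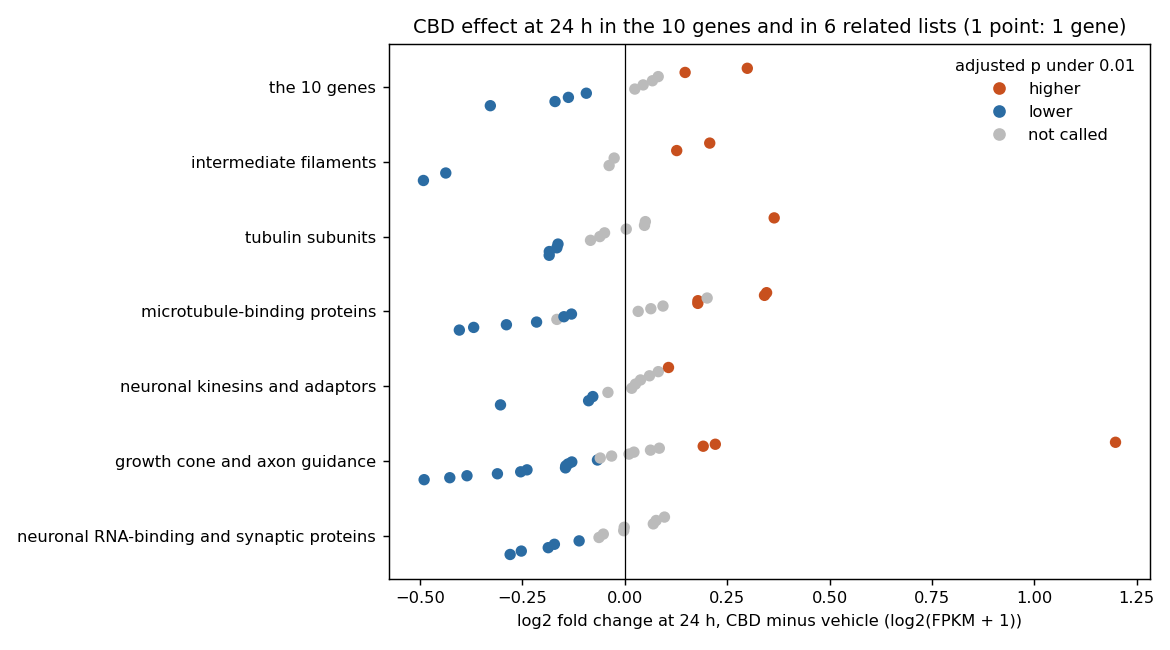
Log2 difference of CBD minus vehicle at 24 h on log2(FPKM + 1) (x axis), 1 point per gene, for the 10 genes and the 6 related lists (rows), coloured by the call at an adjusted p under 0.01. RET stands apart at 1.20, and called genes lie on both sides of 0 in each list except the RNA-binding and synaptic one, where the 5 called are lower.

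Some of the reads behind these values could belong to neighbours. INA shares 452 exonic bases with NT5C2 on the opposite strand, and the study's methods describe the reads as first stranded, while whether strand was used in computing the FPKM is not given in the sources used here. NT5C2, a nucleotidase gene at a lower level, was itself lower with CBD at 24 h, 15.2 ± 0.417 against 17.5 ± 0.355 FPKM (-0.19, adjusted p = 2.52e-09). PRPH overlaps the long noncoding gene TROAP-AS1 on the opposite strand over 1872 bases, and 56.0% of the 50-base words of its transcripts also occur in another gene's when both strands are read, but 0.37% when only the same strand is. NEFL and NEFM each overlap a noncoding gene on the opposite strand, and TUBB3 shares 21.8% of its words with other genes, mostly a readthrough entry on its own strand. STMN2, GAP43 and MAP2 shared no 50-base word with another gene. The part of these overlaps in the differences was not tested.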

How the data were processed

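RNA-Seq libraries from poly(A) RNA of 32 samples were read as single 50-base reads. Reads were trimmed by the authors (Trimmomatic 0.36) and mapped with TopHat against hg19. The deposited FPKM, per gene and sample, came from Cufflinks, and no further scaling is stated. Their table of Cuffdiff fold changes and q-values was not used. Groups came from the sample titles. Labels do not say whether the 4 samples per group were separate cultures, so p-values measure only the spread between these samples.

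From the FPKM, log2(FPKM + 1) of the 12621 genes with a mean of at least 1 FPKM was fitted with 8 group means in limma 3.58.1 (R 4.3.3; eBayes with an intensity trend), two-sided, with Benjamini-Hochberg adjustment over all genes tested and a threshold of 0.01. The fit was run on simulated data with 200 genes changed by 0.5 on the log2 scale. That change is larger than the 24 h difference of any member, so the run does not bear on those calls. The alternatives were 12 other settings and 32 fits that each left out 1 sample. At the same hour, replicate numbers did not pair CBD with vehicle samples. Pairing across hours was not checked, and the tests over time use none. Vehicle replicate 4 was the lowest of its group at every hour for PRPH and TUBB3.

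Genes named were the 10 members, up to 2 called higher and 2 lower per list with the largest 24 h differences, the 3 closest profiles of the 3 widest members, and cell type markers. STMN4 and the overlapping gene NT5C2 were named outside this rule. HBB is not analysed here. The members and lists were chosen with earlier results of these data known. Gene positions and overlaps are from GENCODE 44 on GRCh37, and promoters are from RefSeq.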

Additional observations from a re-analysis of the deposited data

Results flagged for a closer look

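The CBD effect differed between 24 h and 3 h, by limma's test of the difference itself, for INA (-0.18), PRPH (0.22) and GAP43 (-0.51), all on the log2 scale.

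Single samples stood apart from the other 3 of their group by Dixon's test at the 95% level in 6 of 80 gene and group combinations, and such a test flags about 5% of groups by chance. They were NEFM in CBD 6 h replicate 4 (162 FPKM), INA in vehicle 24 h replicate 1 (119 FPKM), PRPH in CBD 24 h replicate 3 (156 FPKM), GAP43 in vehicle 24 h replicate 2 (219.6 FPKM), MAP2 in CBD 12 h replicate 3 (66.9 FPKM) and DCX in vehicle 12 h replicate 4 (9.43 FPKM). The NEFM and GAP43 calls at 6 h turn on CBD replicate 4, as given above. Without the samples that stood apart at 24 h, the calls of INA, PRPH and GAP43 were kept.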

How the results depend on the processing

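Counts of members called on leaving out each sample ranged from 0 to 0 at 3 h, 0 to 2 at 6 h, 2 to 2 at 12 h and 4 to 6 at 24 h, from 3 to 4 for the CBD effect at 24 h against 3 h, and over time from 4 to 6 in vehicle and 6 to 8 in CBD. Counts of other neurite genes ranged from 0 to 1, 11 to 20, 20 to 23 and 37 to 43 at 3, 6, 12 and 24 h. Under quantile normalization 1 member was called at 6 h and 4 at 12 h. With only the groups compared in the fit, which leaves fewer samples for the spread, 3 other neurite genes were called at 6 h in place of 14, as calls over all tested genes fell from 514 to 187 higher and from 774 to 238 lower. At an adjusted p threshold of 0.05, 6 other neurite genes were called at 3 h and 25 at 6 h, and 1 member at 6 h and 5 for the CBD effect at 24 h against 3 h. With the replicate block, 2 other neurite genes were called at 3 h, and no count of members changed (6 at 24 h). None of 16 same-numbered pairs of a CBD and a vehicle sample of the same hour had a correlation over 0.1. Of the 16 CBD samples, 5 were closest to the vehicle sample of their own number.

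Signs that turned belonged to values that were not called, except those of INA in vehicle and MAP2 in CBD over time. Under quantile normalization they were at 3 h INA -0.023, STMN2 -0.028 and UCHL1 -0.0070, at 6 h TUBB3 -0.033 and UCHL1 -0.0025, at 12 h MAP2 0.011, over time in vehicle INA 0.00053, MAP2 0.073 and UCHL1 -0.00043, and over time in CBD MAP2 0.018. MAP2 over time in vehicle was 0.016 under median-ratio scaling, and with relative depth as a term NEFM was -0.0052 and MAP2 0.0034 at 12 h. Quantile normalization also brought the INA CBD effect at 24 h against 3 h from -0.18 to -0.12, still called. The causes were not tested. Leaving out single samples turned the sign of MAP2 at 3 h (-0.049 to 0.027), 6 h (-0.029 to 0.033) and 12 h (-0.037 to 0.0089) and over time in vehicle (-0.034 to 0.025), of NEFM at 12 h (-0.018 to 0.050) and 24 h (-0.0026 to 0.086), of INA at 3 h (-0.00032 to 0.025), of TUBB3 at 6 h (-0.0014 to 0.045) and in the CBD effect at 24 h against 3 h (-0.048 to 0.0059), and of NEFL over time in CBD (-0.012 to 0.050).

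At 24 h the calls of STMN2 (without the filter, with only the groups compared, with relative depth) and MAP2 (without the filter, under quantile normalization at -0.11, with relative depth) were lost under 3 of 12 settings each. FPKM carry no depth, so counting error could not be separated from replicate spread.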
